A study of Rattus norvegicus and Bos taurus with 6 samples.

Results

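HOX genes are the genes of the A, B, C and D HOX clusters, and every gene whose symbol is Hox followed by a cluster letter from a to d and a paralog number from 1 to 13 was taken, in upper or lower case, with antisense genes left out. The 3 annotations used by the 6 libraries list 39 such symbols between them. Of these, 35 are among the 38697 genes of the rat Parse annotation, 36 among the 25629 genes of the rat 10x annotation and 37 among the 36075 genes of the cow annotation, and 32 are shared by all 3. No measured value entered this rule, though it was set with earlier results of these data known.

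HOX genes encode homeodomain transcription factors that give cells along the head-to-tail axis of the embryo their regional identity. Within a cluster the genes lie in the order in which they are switched on along that axis, so low paralog numbers belong to the hindbrain and neck and high numbers to the lumbar, sacral and limb ends of the body. Mesodermal cells often keep part of this pattern in the adult, and fat depots from different places along the body are known to carry different HOX transcripts. HOX proteins bind DNA with partners of the TALE family, PBX and MEIS, and their clusters are held silent by Polycomb and kept active by trithorax proteins.

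Single-nucleus RNA-seq was performed on snap-frozen fat, with 1 library for each condition and no replicate. The 5 rat libraries came from male Dahl SS rats of the SS/HsdMcwiCrl strain on a normal diet, whose age was not given in the sources used here. They are subscapular brown adipose tissue (BAT), perivascular fat of the thoracic aorta (taPVAT), perivascular fat of the mesenteric vessels (mesPVAT) and retroperitoneal fat (RP fat), all on the Parse platform, and mesPVAT once more on the 10x platform. The cow library is subcutaneous white adipose tissue from the flank of a lactating Holstein (cow WAT), on the Parse platform. No group carried a treatment or a transgene. Whether a library came from 1 animal or from several was not given in the sources used here.

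Levels are given as CPM, the unique molecular identifiers (UMIs, each standing for 1 captured transcript) of a gene summed over all nuclei and scaled to 1000000 UMIs of that library. Totals ran from 845316 UMIs in RP fat to 16827260 UMIs in cow WAT, over 2297 to 5887 nuclei, and no barcode was shared between any pair of libraries. The median nucleus held 1706 UMIs in BAT, 1246 in taPVAT, 346 in mesPVAT, 213 in RP fat, 161 in mesPVAT 10x and 3530 in cow WAT. The median nucleus held 304 genes in mesPVAT and 197 in RP fat. The study's text places RP fat above mesPVAT in genes per nucleus, the reverse of the order in these files. Which of the 2 white rat Parse libraries is which was therefore taken from the labels alone, and every value of mesPVAT and RP fat on the Parse platform rests on those labels. With 1 library per condition no test of a difference was possible. All intervals are exact 95% intervals of counting error, and they hold nothing of the spread between animals. The brown labels had the thermogenic transcripts that define brown fat, since the 6 listed genes summed to 5836 CPM in BAT and 4991 CPM in taPVAT, against 506 in mesPVAT, 737 in RP fat, 140 in mesPVAT 10x and 195 in cow WAT. Ucp1, the uncoupling protein of brown fat, was at 2072 CPM in BAT and 1782 CPM in taPVAT. It was at 63.4 CPM in mesPVAT and 89.9 CPM in RP fat, which share the Parse batch with the brown depots, but at 0.808 CPM in mesPVAT 10x. The part of RNA from other libraries or from lysed cells in the HOX values was not tested.

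The A cluster lies on rat chromosome 4 (GRCr8 chr4:82586505-82691701), the B cluster on chromosome 10 (chr10:81657074-81830404), the C cluster on chromosome 7 (chr7:135937126-136051601) and the D cluster on chromosome 3 (chr3:79978077-80075180). Hoxa9 differed far more between the rat depots than Hoxa3 did, and these genes lie close to each other in the A cluster, at chr4:82653847-82659958 and chr4:82599860-82643831, both on the minus strand. The 250 bases before the RefSeq start site of each are shown because these 2 genes carry the contrast between the low and the high paralogs. Capitals mark TAAT or its reverse complement ATTA, the core that homeodomain proteins bind. The RefSeq promoter table held 21 windows of 20 HOX genes and credits these to GRCr8.

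Hoxa3 (ENSRNOG00000006281), chr4:82643832-82644081, minus strand: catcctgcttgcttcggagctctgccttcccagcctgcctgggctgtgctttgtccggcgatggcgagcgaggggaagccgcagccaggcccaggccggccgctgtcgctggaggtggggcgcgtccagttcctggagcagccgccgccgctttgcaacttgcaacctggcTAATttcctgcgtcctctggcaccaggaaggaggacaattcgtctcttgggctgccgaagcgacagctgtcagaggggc
Hoxa9 (ENSRNOG00000064322), chr4:82657049-82657298, minus strand: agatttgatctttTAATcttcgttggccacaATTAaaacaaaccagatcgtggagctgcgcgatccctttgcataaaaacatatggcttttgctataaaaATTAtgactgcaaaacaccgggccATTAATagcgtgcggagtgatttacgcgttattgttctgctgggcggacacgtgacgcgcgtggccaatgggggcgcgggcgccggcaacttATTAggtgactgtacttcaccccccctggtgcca

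The Hoxa3 window held 1 TAAT or ATTA, with 66% G and C, and the Hoxa9 window held 6, with 49.6% G and C, where overlapping matches on both strands were counted. Both windows held 18 CpG. The Hoxa9 window lies inside the span that RefSeq gives Hoxa9, since that gene has more than 1 start. TAAT or ATTA was present in 12 of the 21 HOX windows and in 57.0% of 33469 windows of the same length over all genes. A match is a description of these letters and no evidence of binding.

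HOX transcripts were detected in every depot, and the Parse library labelled mesPVAT carried far more of the high paralogs than either brown depot, while the 10x library of the same label did not. All HOX genes together were at 119 CPM in BAT (95% interval 111 to 128), 176 CPM in taPVAT (165 to 188), 337 CPM in mesPVAT (310 to 367), 151 CPM in RP fat (126 to 180), 510 CPM in mesPVAT 10x (471 to 551) and 405 CPM in cow WAT (395 to 415). These values rest on 752, 899, 559, 128, 631 and 6815 HOX UMIs in that order. The number of HOX genes with at least 1 UMI was 25 in BAT, 29 in taPVAT, 33 in mesPVAT, 26 in RP fat, 23 in mesPVAT 10x and 34 in cow WAT. Only 3 HOX genes reached 10 UMIs in RP fat, against 9 to 12 in the other rat libraries and 25 in cow WAT, so single genes could hardly be read in RP fat.

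As counted by the listed symbols, paralog groups 1-4, the anterior members, were the largest group in all 6 libraries. They were at 100 CPM in BAT, 143 CPM in taPVAT, 167 CPM in mesPVAT, 87.5 CPM in RP fat, 342 CPM in mesPVAT 10x and 198 CPM in cow WAT. Paralog groups 5-8 were at 8.55, 12.5, 53.1, 24.8, 160 and 147 CPM in the same order. Paralog groups 9-13, the posterior members, were at 10.1 CPM in BAT (7.80 to 12.9), 21.0 CPM in taPVAT (17.2 to 25.4), 118 CPM in mesPVAT (102 to 135), 39.0 CPM in RP fat (26.9 to 54.8), 8.08 CPM in mesPVAT 10x (3.87 to 14.9) and 59.7 CPM in cow WAT (56.1 to 63.5). Thus the order of the depots changed with the group, as the plot of group levels shows. In sums over a whole tissue, fewer cells of a type and less RNA per cell cannot be told apart.

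**Figure D1:**
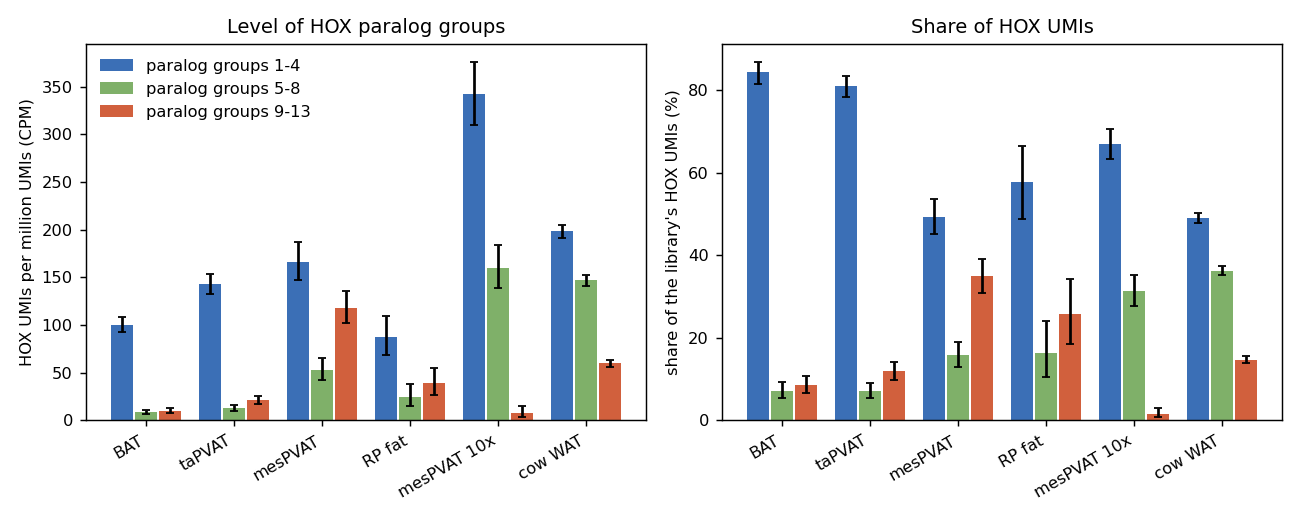
Levels of the HOX paralog groups 1-4, 5-8 and 9-13 in the 6 libraries (left, CPM) and their shares of the HOX UMIs of each library (right, percent), with exact 95% intervals of counting error as error bars. Groups 9-13 reach 118 CPM in mesPVAT and stay at 10.1 CPM in BAT and 8.08 CPM in mesPVAT 10x.

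As shares of the HOX UMIs, which do not depend on the library total, groups 1-4 made up 84.3% in BAT (81.5 to 86.8) and 81.0% in taPVAT (78.3 to 83.5). They made up 49.4% in mesPVAT (45.2 to 53.6) and 57.8% in RP fat (48.8 to 66.5), and the intervals of these white libraries lay below those of both brown libraries. The general low level described below, which was highest in RP fat, was not taken off the shares. It would add most to groups 9-13, with 16 genes in the rat Parse annotation against 12 in groups 1-4. Its part in the shares was not tested. Taken off the group levels, it lowered groups 5-8 and 9-13 of RP fat, as given below. Groups 9-13 made up 8.51% in BAT, 11.9% in taPVAT, 34.9% in mesPVAT, 25.8% in RP fat, 1.58% in mesPVAT 10x and 14.7% in cow WAT. Groups 5-8 made up 7.18% in BAT and 7.12% in taPVAT, and 15.7%, 16.4%, 31.4% and 36.3% in the other libraries. The shares weigh long genes more. With UMIs divided by gene length, groups 9-13 came to 41.0% in mesPVAT, against 39.2% for groups 1-4, and to 40.0% in RP fat, against 34.8%. Groups 1-4 stayed first in BAT (69.5%), taPVAT (66.2%) and mesPVAT 10x (59.6%). No interval is given for these values, and groups 9-13 in RP fat rest on 33 UMIs. There the short Hoxa13, with 4 UMIs, counted for more (2.22 CPM per kb) than Hoxa9 with 6 UMIs (1.16). Which group leads by length in mesPVAT and RP fat is therefore not settled.

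Part of these shares depends on which symbols an annotation lists. Hoxa5, Hoxa6, Hoxb5 and Hoxb6 are not listed by symbol in the rat Parse annotation, Hoxa5, Hoxa6 and Hoxa10 not in the rat 10x annotation, and HOXA4 and HOXD4 not in the cow annotation. The GRCr8 span of Hoxa3 holds Hoxa5 and Hoxa6, so in rat their reads could be counted as Hoxa3, within groups 1-4. Hoxa3 gave 365 of the 634 UMIs of groups 1-4 in BAT, 475 of 728 in taPVAT and 119 of 276 in mesPVAT. It gave 30 of 74 in RP fat and 233 of 423 in mesPVAT 10x. The shared genes do not remove this, since the cow annotation lists HOXA5 and HOXA6 apart, and its part was not tested. Over the 32 shared genes, groups 1-4 made up 83.6% in BAT, 80.5% in taPVAT, 48.2% in mesPVAT, 56.9% in RP fat, 85.8% in mesPVAT 10x and 65.2% in cow WAT. Over the same genes groups 5-8 fell to 12.1% in mesPVAT 10x and 15.6% in cow WAT, and groups 9-13 were at 35.2% in mesPVAT and 2.05% in mesPVAT 10x. On this common set, the share of groups 1-4 in mesPVAT 10x was close to that in the brown depots, and its share of groups 9-13 was below theirs. Cow WAT, with 19.2% in groups 9-13, lay above taPVAT (12.1%) and under the value of RP fat (26.0%). The interval of RP fat, 18.5 to 34.7 from 32 UMIs, holds the cow value, so that order is not settled.

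By cluster, the A cluster held 61.4% of the HOX UMIs in BAT, 68.0% in taPVAT, 46.3% in mesPVAT, 34.4% in RP fat, 38.4% in mesPVAT 10x and 40.5% in cow WAT. The C cluster held 3.46% in BAT and 4.89% in taPVAT, but 19.5% in mesPVAT, 23.4% in RP fat, 12.5% in mesPVAT 10x and 16.3% in cow WAT. The share of the C cluster was thus lower in both brown depots than in each of the other libraries. The D cluster ranged from 3.01% in mesPVAT 10x to 24.9% in cow WAT.

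In the white rat Parse libraries, low HOX values were close to a general low level. The olfactory and vomeronasal receptor genes, which serve the nose and have no known role in fat, were taken as an index of that level after the data were seen. They were picked by symbol, 1285 genes in the rat Parse annotation. A gene of another kind with a symbol of that form, such as Olr1, would be among them, and its part was not tested. The mean of the index genes was 0.131 CPM per gene in BAT, 0.151 in taPVAT, 0.923 in mesPVAT, 1.40 in RP fat, 0.206 in mesPVAT 10x and 0.233 in cow WAT. The paralogs 12 and 13, which pattern the tail, genitals and digits, were at 0.0264, 0.0327, 0.905, 1.97, 0 and 0.228 CPM per gene in the same order, and these are close to the receptor genes in mesPVAT, RP fat and cow WAT. HOX genes above the 99th percentile of the receptor genes numbered 7 in BAT, 5 in taPVAT, 4 in mesPVAT, 1 in RP fat, 12 in mesPVAT 10x and 9 in cow WAT. In mesPVAT they were Hoxa3, Hoxa9, Hoxb4 and Hoxc6, and in RP fat Hoxa3 alone. Markers of tissues next to the depots moved the same way, since the kidney and adrenal list summed to 19.2 CPM in BAT, 25.5 in taPVAT, 97.8 in mesPVAT, 162 in RP fat, 29.9 in mesPVAT 10x and 21.6 in cow WAT. The receptor genes differ from HOX genes in length and structure, and the part of this level and of neighbouring tissue in the HOX values was not tested.

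Hoxa3, which patterns the neck and the pharyngeal organs, gave more UMIs than any other HOX gene in all 5 rat libraries. It was at 57.8 CPM in BAT, 93.1 in taPVAT, 71.8 in mesPVAT, 35.5 in RP fat, 188 in mesPVAT 10x and 56.0 in cow WAT, from 365, 475, 119, 30, 233 and 942 UMIs. It was the only HOX gene with at least 30 UMIs in every library. Hoxb3, of the same paralog group, was at 11.1, 14.3, 17.5, 16.6, 23.4 and 30.1 CPM in that order of libraries, with 14 to 507 UMIs.

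Hoxb4, known for its role in blood stem cells, was at 14.4 CPM in BAT, 20.2 in taPVAT, 41.0 in mesPVAT, 10.6 in RP fat, 64.6 in mesPVAT 10x and 5.17 in cow WAT. Hoxd4 was at 4.12, 3.14, 10.9, 4.73 and 2.42 CPM in the rat libraries in that order. Hoxd3, a gene studied in the angiogenic endothelium, was at 2.85 CPM in BAT, 1.18 in taPVAT, 8.45 in mesPVAT, 8.28 in RP fat and 0.808 in mesPVAT 10x, from 1 to 18 UMIs. In cow WAT, HOXD3 instead gave more UMIs than any other HOX gene, 1651 UMIs at 98.1 CPM.

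The remaining anterior members were low in the Parse rat libraries. Hoxa2, which patterns the hindbrain and the second pharyngeal arch, was at 4.12 CPM in BAT, 3.53 in taPVAT, 3.02 in mesPVAT, 1.18 in RP fat, 2.42 in mesPVAT 10x and 0.594 in cow WAT. Hoxa4 was at 2.53 CPM in BAT and 3.14 CPM in taPVAT from 16 UMIs each, with 0 to 2 UMIs in the other rat libraries. Hoxb2 and Hoxc4 stood out in 1 library. Hoxb2 was at 29.1 CPM in mesPVAT 10x, against 1.27, 1.57, 4.23 and 3.55 CPM in BAT, taPVAT, mesPVAT and RP fat and 2.44 CPM in cow WAT. Hoxc4, which takes part in antibody class switching in B cells, was at 28.3 CPM in mesPVAT 10x, against 1.74, 1.18, 4.83, 3.55 and 5.59 CPM.

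Of the middle members, Hoxc6 and Hoxc8 separated mesPVAT from the brown depots, but not RP fat from taPVAT. Hoxc6 was at 0.475 CPM in BAT (3 UMIs), 2.94 in taPVAT (15 UMIs), 19.9 in mesPVAT (33 UMIs), 4.73 in RP fat (4 UMIs), 18.6 in mesPVAT 10x (23 UMIs) and 32.4 in cow WAT (546 UMIs). Hoxc8, known as a repressor of brown adipocyte genes, had 0 UMIs in BAT, with an exact upper limit of 0.584 CPM. It was at 2.16 CPM in taPVAT, 13.3 in mesPVAT, 3.55 in RP fat, 15.4 in mesPVAT 10x and 6.77 in cow WAT. Both mesPVAT libraries thus had more Hoxc6 and Hoxc8 than the brown depots. The brown depots have Parse libraries only, so for mesPVAT 10x this comparison crosses the platforms. In RP fat the interval of Hoxc6 was 1.29 to 12.1 CPM, against 1.65 to 4.85 in taPVAT. That of Hoxc8 was 0.732 to 10.4 CPM, against 1.08 to 3.86 in taPVAT. Hoxc8 in Parse mesPVAT lay under the 99th percentile of the receptor genes of that library, 19.3 CPM. Hoxd8 had another pattern, with 5.86 CPM in BAT, 2.55 in taPVAT, 8.45 in mesPVAT, 3.55 in RP fat, 5.66 in mesPVAT 10x and 1.55 in cow WAT.

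Hoxb6 was at 82.4 CPM in mesPVAT 10x (102 UMIs) and 31.4 CPM in cow WAT (528 UMIs). Hoxb5, an activator of the VEGF receptor gene Kdr, was at 29.9 CPM in mesPVAT 10x and 0.832 CPM in cow WAT. HOXA5 and HOXA6 were at 34.1 and 33.1 CPM in cow WAT. For these 4 genes no level can be given for the other libraries, whose annotations do not list the symbols.

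Hoxa9 had the widest range over the rat libraries, as a fold between the highest and the lowest, among the named genes with a UMI in each of them. That range rests on 1 UMI in mesPVAT 10x and crosses the platforms. Within the rat Parse libraries the range of Hoxa9 was 9.95-fold, less than those of Hoxc6 (41.9-fold) and Hoxc9 (40.0-fold). The lowest values of Hoxc6 and Hoxc9 there rest on 3 and 2 UMIs. Hoxa9 was at 7.44 CPM in BAT (47 UMIs), 16.7 in taPVAT (85 UMIs), 70.6 in mesPVAT (117 UMIs), 7.1 in RP fat (6 UMIs), 0.808 in mesPVAT 10x (1 UMI) and 36.1 in cow WAT (607 UMIs). In the 2 sublibraries of the Parse run, which split the nuclei of each library, it was at 8.23 and 6.65 CPM in BAT, 17.0 and 16.3 in taPVAT, 66.2 and 75.5 in mesPVAT and 38.0 and 34.4 in cow WAT. The order of these 4 libraries was the same in both, while RP fat, at 4.18 and 10.9 CPM from 6 UMIs in all, lay below BAT in one and above it in the other. Hoxc9, used as a marker of white adipocytes, was at 0.475 CPM in BAT, 0.392 in taPVAT, 15.7 in mesPVAT, 11.8 in RP fat, 0.808 in mesPVAT 10x and 15.2 in cow WAT. In mesPVAT and RP fat it lay under the 99th percentile of the receptor genes, 19.3 and 29.8 CPM. The other 21 HOX genes had at most 7 UMIs in BAT, 8 in taPVAT, 11 in mesPVAT, 5 in RP fat and 7 in mesPVAT 10x, and at most 47 in cow WAT, where HOXC10 was the highest.

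**Figure D2:**
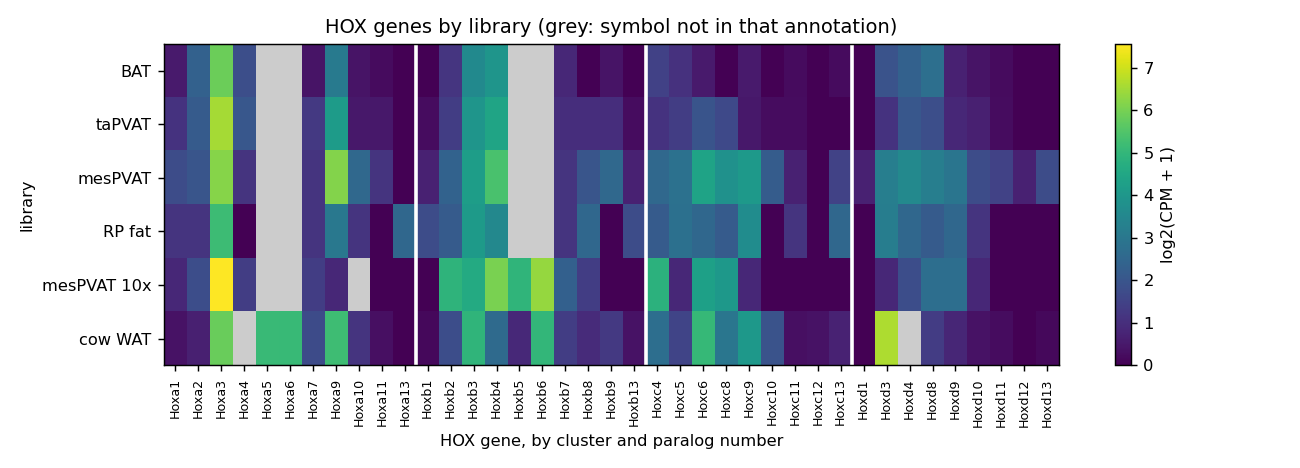
Level of each HOX gene in each library as log2(CPM + 1), ordered by cluster (A to D, white lines) and paralog number, with grey where an annotation does not list the symbol. The Hoxa3 column is bright in every library, and the Hoxa9 column is bright in mesPVAT and cow WAT and dark in mesPVAT 10x.

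A long gene gives more nuclear transcript fragments, so the order of genes within a library was read per kilobase of the RefSeq span. On this scale Hoxb4 came first among the genes with at least 10 UMIs in BAT (5.58 CPM per kb), taPVAT (7.82), mesPVAT (15.9) and mesPVAT 10x (25). Hoxa3, whose span is 43972 bases, was at 1.31, 2.12, 1.63 and 4.28 CPM per kb in these libraries, and its span holds Hoxa4, Hoxa5 and Hoxa6. Hoxa9 was second in taPVAT (2.73 CPM per kb) and in mesPVAT (11.6). In all, 7 of the 39 HOX spans overlap another one, Hoxc6 with Hoxc4 and Hoxc5 among them, and the counting may split or merge the reads of such genes.

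The first comparison asked whether the 2 brown depots, 1 around the aorta and 1 between the shoulder blades, differed in HOX genes. The 9 HOX genes with at least 20 UMIs over both libraries were compared, and a gene was counted as past the fold when its CPM differed at least 2-fold. In taPVAT, Hoxa9 was 2.24-fold higher than in BAT (1.55 to 3.27). It was the 1 HOX gene past the fold in that direction, where 5.97% of all genes with that many UMIs were. Hoxd8 was 2.30-fold higher in BAT (1.19 to 4.71) and Hoxd3 2.42-fold (0.921 to 7.45, which holds 1), so 2 HOX genes were past the fold in that direction, against 1.10% of all genes. The levels of Hoxa3, Hoxb3, Hoxb4, Hoxa2, Hoxa4 and Hoxd4 stayed within 2-fold. As a group, paralogs 9-13 were 2.07-fold higher in taPVAT (1.51 to 2.87), groups 5-8 1.47-fold (1.01 to 2.15) and groups 1-4 1.42-fold (1.28 to 1.58). The median gene was 1.08-fold higher in taPVAT, and scaling by the median gene turned no direction here.

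The second comparison set the white mesPVAT against the brown depots. In mesPVAT, 8 of 11 HOX genes were past the fold above taPVAT and none below it, where 45% of all genes lay above and 9.96% below. Hoxc9 was 40.0-fold higher (10.0 to 348), Hoxd3 7.18-fold (2.59 to 22.8), Hoxc6 6.77-fold (3.58 to 13.4), Hoxc8 6.16-fold (2.86 to 14.1), Hoxa9 4.24-fold (3.18 to 5.67), Hoxd4 3.46-fold (1.67 to 7.26), Hoxd8 3.32-fold (1.45 to 7.66) and Hoxb4 2.03-fold (1.47 to 2.79). The median over these 11 genes was 3.46 and over all genes 1.63. Hoxa3, at a ratio of 0.771 (0.625 to 0.945), went the other way.

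Against BAT, 7 of 11 HOX genes were past the fold above and none below in mesPVAT, where 48.6% of all genes lay above and 9.86% below. Hoxc6 was 41.9-fold higher (13.2 to 214), Hoxc9 33.1-fold (10.1 to 171), Hoxa9 9.49-fold (6.71 to 13.6), Hoxd3 2.97-fold (1.37 to 6.31), Hoxb4 2.85-fold (2.05 to 3.94) and Hoxd4 2.64-fold (1.36 to 5.00). Hoxc8 was 28-fold higher with the count of 0 in BAT set to 3 UMIs, and its exact interval began at 20.9. The median over the 11 genes was 2.85 and over all genes 1.91. The shares of HOX genes past the fold above, 72.7% against taPVAT and 63.6% against BAT, are to be read against these backgrounds of 45% and 48.6%. The ratios of Hoxc6, Hoxc8, Hoxc9 and Hoxa9 lay well above the median gene. The mean receptor gene, described above, was itself at 0.131 CPM in BAT, 0.151 in taPVAT and 0.923 in mesPVAT. Hoxc8 and Hoxc9 in mesPVAT lay under the 99th percentile of the receptor genes, 19.3 CPM. The part of that general low level in these ratios was not tested. In mesPVAT, Hoxc6, Hoxc8 and Hoxc9 had 33, 22 and 26 UMIs. They had 3, 0 and 3 in BAT and 15, 11 and 2 in taPVAT. Hoxc6, Hoxc8 and Hoxc9 were thus compared because of their UMIs in mesPVAT, which favours high ratios. The part of this choice in the medians and shares against both brown depots was not tested. Hoxa9 had enough UMIs in each brown depot alone, 47 in BAT and 85 in taPVAT.

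Groups 9-13 were 11.6-fold higher in mesPVAT than in BAT (8.72 to 15.7) and 5.61-fold higher than in taPVAT (4.41 to 7.17). Groups 5-8 were 6.21-fold (4.38 to 8.89) and 4.23-fold (3.03 to 5.94) higher. Groups 1-4 differed least, by 1.66-fold (1.44 to 1.92) and 1.17-fold (1.01 to 1.34). When the libraries were scaled by the median gene with at least 20 UMIs in each, groups 9-13 were still 8.53-fold and 4.52-fold higher in mesPVAT, but groups 1-4 turned to a ratio of 0.941 against taPVAT and Hoxa3 to 0.913 against BAT. Such a scaling divides all genes of a pair of libraries by the same factor, so it cannot change the order of the groups. Against BAT, groups 1-4 stayed higher in mesPVAT, by 1.22-fold.

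**Figure D3:**
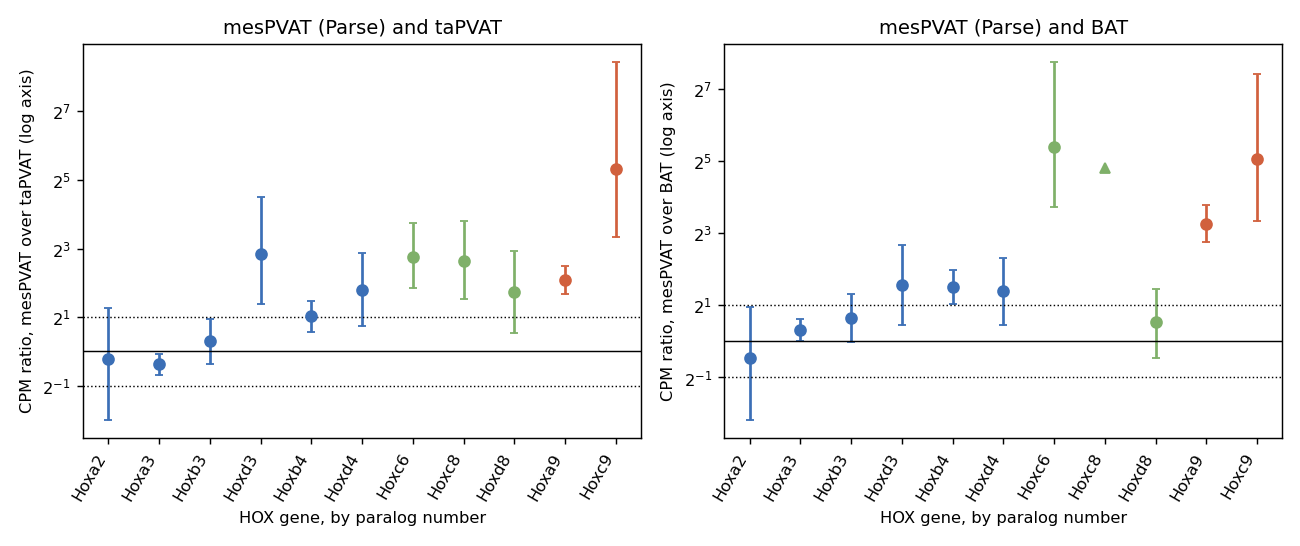
Ratio of the CPM of each HOX gene with at least 20 UMIs over both libraries, mesPVAT (Parse) over taPVAT (left) and over BAT (right), on a log axis with exact 95% intervals, ordered by paralog number. Dotted lines mark 2-fold. The triangle is Hoxc8, whose ratio of 28 has the 0 UMIs of BAT set to 3, with an exact lower limit of 20.9.

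The third comparison was between the white rat depots on the same platform. In mesPVAT, 6 of 9 HOX genes were past the fold above RP fat and none below, where 5.88% of all genes lay above and 9.79% below. Hoxa9 was 9.95-fold higher (4.44 to 27.7), Hoxc6 4.21-fold (1.5 to 16.4), Hoxb4 3.86-fold (1.92 to 8.79), Hoxc8 3.74-fold (1.12 to 19.5), Hoxd4 2.30-fold (0.756 to 9.33, which holds 1) and Hoxa3 2.02-fold (1.35 to 3.13). The median HOX ratio was 2.30, against 0.840 over all genes. Hoxa3 alone reached 20 UMIs in RP fat by itself, so the other genes were compared because of their UMIs in mesPVAT or in both. That favours high ratios, so neither the count of 6 of 9 nor the median supports anything. Hoxc9 (1.33, 0.619 to 3.08), Hoxb3 (1.06, 0.541 to 2.16) and Hoxd3 (1.02, 0.385 to 2.99) stayed within 2-fold with intervals that hold 1. Groups 9-13 were 3.02-fold higher in mesPVAT (2.08 to 4.50), groups 5-8 2.14-fold (1.32 to 3.62) and groups 1-4 1.90-fold (1.47 to 2.49). With the mean receptor level taken off each HOX gene, an alternative chosen after seeing the data, groups 9-13 in RP fat fell from 39.0 to 16.6 CPM.

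Against the brown depots, RP fat gave few readable HOX genes. Of 8 HOX genes, Hoxd3 was 2.91-fold higher in RP fat than in BAT (1.03 to 7.29), where 48.8% of all genes lay above, and Hoxa2 was 3.48-fold higher in BAT (0.571 to 143, from 1 UMI in RP fat), where 16% did. Scaled by the median gene, Hoxd3 was at a ratio of 1.74 and no longer past the fold. On that scale 4 HOX genes were past it, all higher in BAT, which were Hoxa2 (5.80-fold), Hoxd8 (2.75-fold), Hoxa3 (2.72-fold) and Hoxb4 (2.26-fold). Of 5 HOX genes compared with taPVAT, none was past the fold above in RP fat, where 46% of all genes were, and 2 were past it below, where 16.6% were. These were Hoxa3, 2.62-fold higher in taPVAT (1.81 to 3.93), and Hoxa9, 2.35-fold higher in taPVAT (1.04 to 6.58). The median HOX ratio was 0.847 against BAT and 0.527 against taPVAT. The median gene was 1.87-fold and 1.61-fold higher in RP fat. Hoxa3 alone had enough UMIs in RP fat by itself. The other HOX genes were compared because of their UMIs in the brown depot or in both. That favours low ratios in RP fat, so neither the median HOX ratios nor the counts past the fold support anything. The same holds for the 4 genes past the fold after scaling, apart from Hoxa3. As a group, paralogs 9-13 were 3.85-fold higher in RP fat than in BAT (2.45 to 5.95) and 1.86-fold higher than in taPVAT (1.22 to 2.77). Scaled by the median gene these ratios were 2.31 and 1.27. With the receptor level taken off, groups 9-13 were at 16.6 CPM in RP fat, 8.03 in BAT and 18.6 in taPVAT, so the direction against taPVAT turned. All HOX genes together were 1.27-fold higher than in BAT, and 0.762-fold when scaled by the median gene, so that direction is not settled.

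The fourth comparison was of mesPVAT on the Parse and 10x platforms. Of 11 HOX genes, 3 were past the fold higher on Parse, where 32.8% of all genes were, and 3 higher on 10x, where 22.6% were. Hoxa9 was 87.4-fold higher on Parse (15.4 to 3481) and Hoxc9 19.4-fold (3.19 to 796), each with 1 UMI on 10x, and Hoxd4 was 4.48-fold higher (1.31 to 23.8). Hoxb2 was 6.88-fold higher on 10x (3.02 to 18.3), Hoxc4 5.86-fold (2.67 to 14.6) and Hoxa3 2.62-fold (2.09 to 3.30). Hoxb3, Hoxb4, Hoxc6, Hoxc8 and Hoxd8 stayed within 2-fold. By group, paralogs 9-13 were 14.6-fold higher on Parse (7.75 to 30.9), while groups 1-4 were 2.05-fold (1.76 to 2.40) and groups 5-8 3.01-fold (2.33 to 3.92) higher on 10x. The same tissue label thus had 34.9% of its HOX UMIs in groups 9-13 on one platform and 1.58% on the other. The 10x library differs at least in priming at the 3' end of transcripts, annotation, genome build (Rnor_6.0), batch and nucleus sorting, and these cannot be told apart. The study's supplement also gives an earlier nucleus isolation protocol for the 10x work, where the labels give the same protocol for all libraries. The order of genes per nucleus given above bears on the label of the Parse library, and its part in this difference was not tested.

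By cell class, nuclei were clustered within each library without the HOX genes and named from fixed markers, with the suffix -like for a class named in this way. Endothelial-like nuclei hold blood and lymphatic clusters, and in mesPVAT 10x their cluster was led by Foxp2 and Prox1, both lymphatic genes. In mesPVAT, 40.9% of the nuclei stayed unnamed, as did 91.1% in RP fat, 32.1% in mesPVAT 10x and 10.9% in cow WAT. RP fat had no named class besides 233 adipocyte-like nuclei with 6 HOX UMIs, and it is not described further by class.

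HOX transcripts were found in the adipocyte-like, progenitor (ASPC-like), endothelial-like and mural (pericyte/SMC-like) nuclei, and were lowest in immune-like nuclei wherever that class was named. In BAT, all HOX genes were at 103 CPM in adipocyte-like, 108 in ASPC-like, 150 in endothelial-like, 172 in pericyte/SMC-like and 31.8 CPM in immune-like nuclei. In taPVAT the levels were 160, 219, 215, 210 and 78.6 CPM in the same order. In mesPVAT the levels were 399, 393, 374 and 416 CPM in the first 4 of these classes, so each of them was higher than in both brown depots, and mesothelial-like nuclei were at 241 CPM from 9 UMIs. These class levels are not scaled by the median gene. Over all nuclei that gene was 1.91-fold higher in mesPVAT than in BAT and 1.63-fold higher than in taPVAT. The part of this general shift in the class levels was not tested. Cow WAT had 541 CPM in adipocyte-like, 449 in ASPC-like, 465 in endothelial-like, 355 in pericyte/SMC-like and 123 CPM in immune-like nuclei. In mesPVAT 10x the levels were 465, 624 and 712 CPM in adipocyte-like, ASPC-like and endothelial-like nuclei and 325 CPM in immune-like nuclei, which fell to 23 CPM when each nucleus was named alone.

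**Figure D4:**
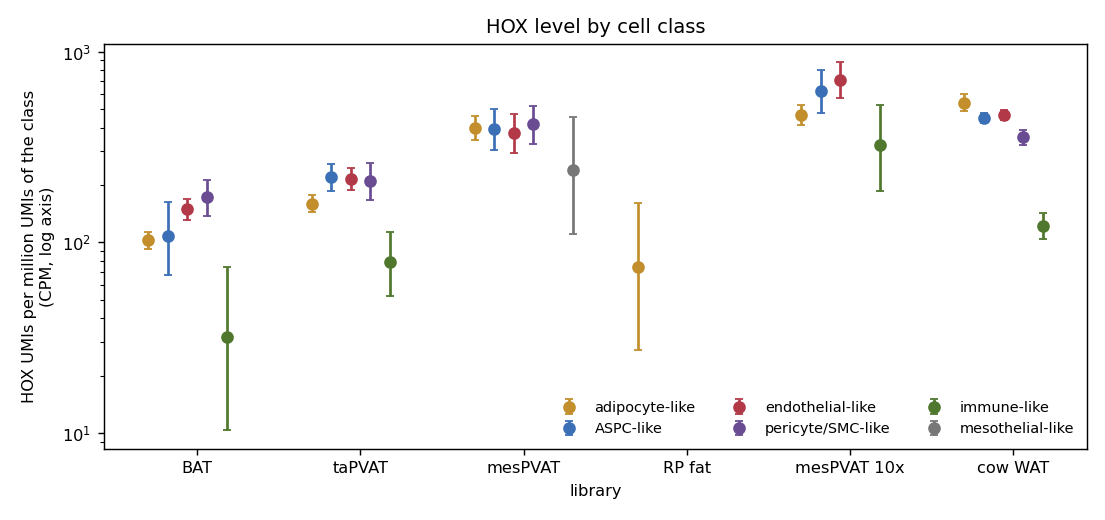
Level of all HOX genes together by cell class in each library (CPM of the class, log axis, exact 95% intervals of counting error). Immune-like nuclei lie lowest in BAT (31.8 CPM), taPVAT (78.6 CPM), mesPVAT 10x (325 CPM) and cow WAT (123 CPM).

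Hoxa9 and the B cluster genes Hoxb3 and Hoxb4 were divided differently between adipocyte-like and endothelial-like nuclei. In BAT, Hoxb4 was at 40.4 CPM in endothelial-like nuclei (64 UMIs) and 1.52 CPM in adipocyte-like nuclei (5 UMIs), a ratio of 26.6 (10.8 to 84.6). Hoxb3 was at 25.9 and 1.83 CPM, a ratio of 14.2 (5.99 to 40.9). Hoxa9 went the other way, at 12.2 CPM in adipocyte-like nuclei (40 UMIs) and 1.26 CPM in endothelial-like nuclei (2 UMIs), a ratio of 9.64 (2.5 to 82.3). Hoxa3 was spread over both, at 67.6 and 44.2 CPM.

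The endothelial lean of Hoxb4 was also present in taPVAT and mesPVAT, and in cow WAT against ASPC-like nuclei. RP fat had no endothelial-like class. In taPVAT Hoxb4 was 4.61-fold (2.68 to 8.18) and Hoxb3 4.06-fold (2.08 to 8.20) higher in endothelial-like than in adipocyte-like nuclei. In mesPVAT Hoxb4 was at 131 and 25.6 CPM, a ratio of 5.13 (2.54 to 10.9). In cow WAT HOXB4 was at 12.8 CPM in endothelial-like nuclei and 2.38 CPM in ASPC-like nuclei, a ratio of 5.40 (2.06 to 17.9), and HOXB3 was 3.56-fold higher (2.57 to 5.00). In mesPVAT 10x Hoxb4 was at 66.2 CPM in endothelial-like and 55.7 CPM in adipocyte-like nuclei, so the lean was not seen there. The endothelial-like cluster of that library was led by lymphatic genes, so the classes are not fully alike. Hoxb5 leaned to endothelial-like nuclei in mesPVAT 10x, at a ratio of 4.08 (1.72 to 9.50), and the rat Parse annotation does not list it.

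Hoxa9 leaned toward adipocyte-like and ASPC-like nuclei. In mesPVAT it was at 116 CPM in adipocyte-like nuclei, 113 in ASPC-like, 49.9 in pericyte/SMC-like and 15.2 CPM in endothelial-like nuclei. The ratio to endothelial-like nuclei was 7.66 (2.5 to 38.2) in adipocyte-like and 7.46 (2.20 to 39.4) in ASPC-like nuclei, from 3 endothelial UMIs. In cow WAT HOXA9 was at 59.97 CPM in adipocyte-like and 62.3 CPM in ASPC-like nuclei, and at 19.7 CPM in endothelial-like, 15.8 in pericyte/SMC-like and 7.76 CPM in immune-like nuclei. In taPVAT it was at 19.8 CPM in adipocyte-like and 12.3 CPM in endothelial-like nuclei, a ratio of 1.60 whose interval holds 1 (0.854 to 3.23).

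The directions were kept when each nucleus was named alone, with no use of clusters, but several sizes moved. The endothelial to adipocyte ratio in BAT was then 14.2 for Hoxb4 (8.51 to 24.6) and 5.91 for Hoxb3 (3.26 to 10.7). The adipocyte to endothelial ratio of Hoxa9 was 3.39 in BAT, with an interval that holds 1 (0.878 to 28.9), 5.14 in taPVAT (1.37 to 43.3) and 2.32 in mesPVAT (1.20 to 4.94). In cow WAT the pericyte/SMC to endothelial ratio described next was 8.35 for HOXC6 (5.24 to 13.7) and 11 for HOXC9 (4.69 to 30.01).

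**Figure D5:**
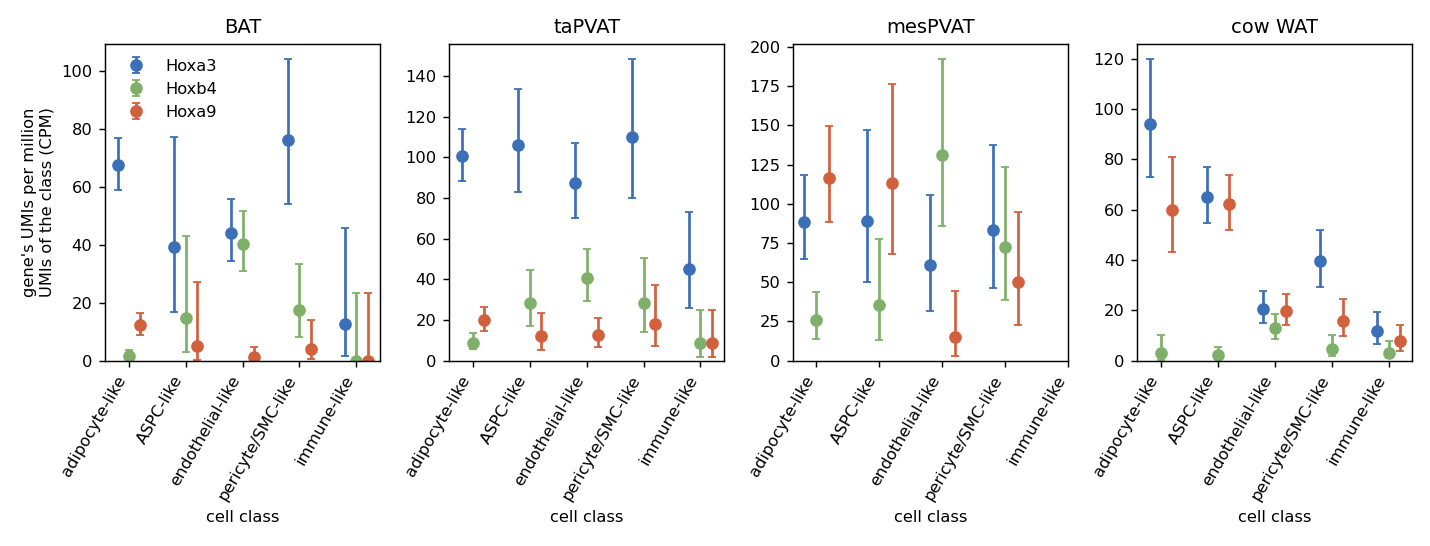
Levels of Hoxa3, Hoxb4 and Hoxa9 by cell class in BAT, taPVAT, mesPVAT and cow WAT (CPM of the class, exact 95% intervals; each panel has its own scale, and mesPVAT had no immune-like class). Hoxb4 is highest in endothelial-like nuclei in each panel, and Hoxa9 stands above it in adipocyte-like nuclei.

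Cow WAT, the deepest library, allowed more members to be placed. HOXD3 was at 214 CPM in endothelial-like nuclei (466 UMIs), 103 in adipocyte-like, 70.4 in ASPC-like, 69.3 in pericyte/SMC-like and 23.3 CPM in immune-like nuclei, so it was 3.04-fold (2.52 to 3.68) higher in endothelial-like than in ASPC-like nuclei. The C cluster genes HOXC6 and HOXC9 went the other way. HOXC6 was at 71.7 CPM in pericyte/SMC-like, 31.4 in ASPC-like, 31.4 in adipocyte-like and 3.67 CPM in endothelial-like nuclei, and it was 19.5-fold higher in pericyte/SMC-like than in endothelial-like nuclei (9.51 to 46.6). HOXC9 was 22.9-fold higher (7.30 to 116) between the same classes, from 40 and 3 UMIs. HOXA6 was 2.70-fold (1.90 to 3.89) and HOXA5 2.12-fold (1.46 to 3.13) higher in ASPC-like than in endothelial-like nuclei. Groups 9-13 made up 20.2% of the HOX UMIs in ASPC-like and 5.72% in endothelial-like nuclei, where groups 1-4 made up 72.9%.

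The higher level of the posterior group in the Parse library of mesPVAT was present within classes, and it was not seen in the 10x library, where groups 9-13 were at 8.08 CPM over all nuclei, against 10.1 in BAT and 21.0 in taPVAT. Groups 9-13 in mesPVAT were higher than in BAT by 11.7-fold in adipocyte-like nuclei (8.10 to 17.1), 16.4-fold in ASPC-like (4.12 to 142), 10.7-fold in endothelial-like (4.12 to 28.7) and 26.9-fold in pericyte/SMC-like nuclei (6.50 to 238). Against taPVAT they were 7.50-fold (5.26 to 10.8), 9.78-fold (4.70 to 21.8), 3.20-fold (1.43 to 6.87) and 3.74-fold (1.69 to 8.70) higher in the same classes. In each of the 4 classes the intervals lay above 1. These class ratios are not scaled by the median gene. Over all nuclei the median gene was 1.91-fold higher in mesPVAT than in BAT and 1.63-fold higher than in taPVAT. The lower limit for endothelial-like nuclei against taPVAT, 1.43, lies under 1.63. No class ratio with the receptor level taken off is given here. Between the platforms, groups 9-13 had 85 UMIs in adipocyte-like nuclei of mesPVAT and 2 in those of mesPVAT 10x, a ratio of 48 (12.9 to 403), so the platform difference was present within adipocyte-like nuclei too. It was 24.5 (8.06 to 121) with each nucleus named alone, from 3 UMIs on 10x.

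Between the brown depots, groups 9-13 were 3.34-fold (1.45 to 8.32) higher in endothelial-like nuclei of taPVAT than of BAT and 1.56-fold (1.03 to 2.36) higher in adipocyte-like nuclei. Hoxa3 was 1.97-fold (1.43 to 2.73), 1.49-fold (1.23 to 1.79) and 2.70-fold (1.3 to 6.51) higher in taPVAT in endothelial-like, adipocyte-like and ASPC-like nuclei. Hoxb4 was at 40.7 and 40.4 CPM in endothelial-like nuclei of taPVAT and BAT, but at 8.83 and 1.52 CPM in adipocyte-like nuclei, a ratio of 5.81 (2.13 to 19.7), which was 2.38 (1.39 to 4.19) with each nucleus named alone. RNA from endothelial nuclei carried into other nuclei would fall in the same classes, and its part was not tested.

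The cofactors and regulators of HOX genes were read from a list of 33 genes. Between BAT and taPVAT none of the 24 list genes with enough UMIs was past the fold, against 1.10% and 5.97% of all genes. Meis1, a TALE partner of HOX proteins, was at 114 CPM in BAT, 155 in taPVAT, 109 in mesPVAT, 125 in RP fat, 387 in mesPVAT 10x and 71.9 in cow WAT. Meis2 was at 126, 161, 137, 161 and 306 CPM in the rat libraries, and the cow annotation lists 2 entries of this symbol, at 123 and 1.37 CPM. Both stayed within 2-fold between the rat Parse libraries and stood apart in mesPVAT 10x, where Meis1 was 3.54-fold (2.98 to 4.23) and Meis2 2.24-fold (1.89 to 2.65) higher than on Parse.

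Among the other TALE genes, Pknox2 was at 28 CPM in BAT, 35.3 in taPVAT, 97.8 in mesPVAT and 143 in RP fat, and Pbx4 at 2.06, 2.35, 9.05 and 20.1 CPM. These 2 of 9 TALE genes were past the fold above the brown depots in both white Parse libraries, where 45% to 48.8% of all genes were. Pbx4 in RP fat, at 20.1 CPM from 17 UMIs, lay under the 99th percentile of the receptor genes in that library, 29.8 CPM. Of the Polycomb genes, which keep silent HOX clusters closed, Cbx2 was 3.80-fold lower in mesPVAT than in BAT (1.41 to 14.4), and none of 10 was higher. Of 4 trithorax and demethylase genes with enough UMIs, Kdm6b was 2.11-fold lower in mesPVAT than in BAT (1.77 to 2.53). Over the whole list, 2 of 23 genes were higher and 3 lower in mesPVAT than in BAT, where 48.6% of all genes were higher and 9.86% lower. Against taPVAT the counts were also 2 and 3, where 45% and 9.96% of all genes were.

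Within the white depots, 5 of 23 list genes were higher in mesPVAT than in RP fat and 2 were lower, where 5.88% and 9.79% of all genes were. The higher ones were Men1 4.08-fold (1.24 to 21.2), Kmt2a 2.91-fold (2.32 to 3.68), Suz12 2.28-fold (1.29 to 4.30), Bmi1 2.25-fold (0.830 to 7.59) and Pbx2 2.04-fold (0.921 to 5.13). Kmt2a and Men1 belong to the trithorax complex that keeps HOX genes active, and Suz12 and Bmi1 to Polycomb. The intervals of Bmi1 and Pbx2 hold 1, and 2 of 9 Polycomb genes and 2 of 4 trithorax and demethylase genes were past the fold. Among these higher genes Kmt2a alone had 20 UMIs in RP fat by itself. The others were compared because of their UMIs in mesPVAT. That favours high ratios, so the count of 5 of 23 supports nothing about the list. Cdx1, an upstream activator of HOX clusters that is best known from the gut, was 6.66-fold higher in RP fat (2.36 to 23.1). Its 20.1 CPM there, from 17 UMIs, lay under that percentile too. Against RP fat, 8 of 24 list genes were higher in BAT and 7 of 24 in taPVAT, where 16% and 16.6% of all genes were, and 3 were lower in each case, where 48.8% and 46% were. Of those higher in a brown depot, only Kmt2a and Kdm6b had 20 UMIs in RP fat by themselves. The rest were compared because of their UMIs in the brown depot, which favours such ratios. Between the platforms, 1 of 22 list genes was higher on Parse and 6 on 10x, where 32.8% and 22.6% of all genes were. No noncoding gene of the list could be compared, and Hoxa11-as, an antisense gene of the A cluster, had 0 to 4 UMIs in the rat libraries.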

How the data were processed

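Nuclei of 5 rat and 1 cow fat samples were profiled, and groups were taken from the deposited labels. For the Parse libraries the authors aligned reads with split-pipe to GRCr8 (rat) or ARS-UCD1.3 (cow), after splitting reads by species, and for the 10x library they aligned with Cell Ranger to Rnor_6.0. The deposited values are raw counts of UMIs per gene and barcode, not normalized. The labels also name FastQC and Scanpy. No column of other samples was left out, and every deposited barcode entered the sums over libraries.

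UMIs were summed per gene and scaled to CPM. A gene was past the fold at 2-fold or more with at least 20 UMIs over both libraries, and a count of 0 was set to 3 UMIs. Exact Poisson, binomial and conditional binomial intervals (95%) cover counting error only, and no test or p-value was computed. For cell classes, nuclei with 100 to 15000 UMIs, at most 4500 genes and at most 3% mitochondrial UMIs were scaled to 1000 UMIs and log transformed, and clustered with 2000 variable genes, 30 components, 15 neighbours and Leiden resolution 1, HOX genes left out. Clusters were named from 77 markers in 8 classes, by a rule whose 4 versions were made with the clusters, but not their HOX genes, in view. A class was used with at least 50 nuclei. Doublets were not called and remain. Named genes are those among the 5 highest of any library, those past the fold in any of the 7 comparisons and the 2 nearest to it. Values of some genes of the cofactor list are not reported here. Members and lists were chosen with earlier results of these data known. The fold rule and the Poisson and ratio intervals were tested on simulated counts. For the fold rule these had the totals of BAT and taPVAT and changes in genes with many UMIs. That check does not cover genes with as few UMIs as most HOX genes, and clustering and class naming were not tested. Clustering used scanpy 1.11.5 on anndata 0.12.19 objects, with igraph 0.11.9 for Leiden and scikit-learn 1.9.0 for components. Tables and intervals were made in Python 3.11.15 with pandas 2.3.3, scipy 1.17.1 and numpy 2.4.6, and figures with matplotlib 3.10.9.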

Additional observations from a re-analysis of the deposited data

How the results depend on the processing

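Depth was a limit, with 128 HOX UMIs in RP fat and 559 in mesPVAT, and without replicates no spread between animals was known. No paired analysis was possible because each condition has 1 library and no test was made, and no library could be left out. Of 138 group levels under another setting 118 stayed within the counting interval, of 99 shares 75, of 61 counts 32 lay within 1.5 times, and of 90 class levels 78. The cause of the moves below was not tested unless the setting itself changes the genes, nuclei or UMIs used.

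Dividing UMIs by gene length moved all 15 rat shares. Groups 1-4, 5-8 and 9-13 became 69.5%, 17.7% and 12.8% in BAT, 66.2%, 15.4% and 18.4% in taPVAT, 39.2%, 19.8% and 41.0% in mesPVAT, 34.8%, 25.1% and 40.0% in RP fat, and 59.6%, 36.9% and 3.53% in mesPVAT 10x. The shared genes alone gave 85.8% for groups 1-4 and 12.1% (47.7 CPM) for groups 5-8 in mesPVAT 10x, and 65.2%, 15.6% (47.5 CPM) and 19.2% in cow WAT. Without mitochondrial genes and the top gene in the total, groups 1-4 were at 115 CPM in BAT, 163 in taPVAT and 223 in cow WAT, with cow groups 5-8 at 165 and 9-13 at 67.2 CPM. As a mean over nuclei, groups 1-4 were at 108, 156 and 181 CPM in BAT, taPVAT and cow WAT, groups 9-13 at 13.4 CPM in BAT, and cow groups 5-8 and 9-13 at 126 and 51.2 CPM. Within the study's limits on nuclei, cow groups 5-8 and 9-13 were at 128 and 50.7 CPM, and the cow shares at 52.0%, 34.4% and 13.6%. Cow groups 5-8 were at 138 CPM (34.9%) in sublibrary 1 and 155 CPM in sublibrary 2. With the receptor level taken off, groups 5-8 and 9-13 were at 15 and 16.6 CPM in RP fat, and cow groups 9-13 at 56.0 CPM.

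Counts past the fold moved as follows. At 3-fold they were 0 for BAT and taPVAT, 1 for RP fat and BAT, 4 for mesPVAT and BAT, and 0 for RP fat and taPVAT. With 10 UMIs in place of 20 they were 5 for BAT and taPVAT, 6 for RP fat and BAT, 17 for mesPVAT and taPVAT, 14 for mesPVAT and BAT, and 7 for RP fat and taPVAT. With 50 UMIs they were 3 for mesPVAT and RP fat, 2 between the platforms, 0 for RP fat and BAT, and 2 for mesPVAT against each brown depot. With nuclei of at least 500 UMIs they were 2 between the platforms, 5 for RP fat and BAT, 5 for mesPVAT and taPVAT, 4 for mesPVAT and BAT, and 4 for RP fat and taPVAT. In sublibraries 1 and 2 alone they were 3 and 2 for mesPVAT and RP fat, 1 and 0 for RP fat and BAT, 2 and 3 for mesPVAT and taPVAT, and 4 and 2 for mesPVAT and BAT, from fewer UMIs. For RP fat and BAT, 1 gene had an interval without 1, and scaling by the median gene gave 4, all higher in BAT. Apart from Hoxa3, these 4 genes were compared because of their UMIs in BAT, which favours that direction.

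With each nucleus named alone, HOX levels were 61.0 CPM in ASPC-like and 199 in endothelial-like nuclei of BAT, 246 in endothelial-like and 297 in pericyte/SMC-like nuclei of taPVAT, 23 in immune-like nuclei of mesPVAT 10x, and 407 in ASPC-like and 433 CPM in endothelial-like nuclei of cow WAT. With at least 500 UMIs, immune-like nuclei of taPVAT were at 138 CPM and adipocyte-like nuclei of mesPVAT 10x at 383 CPM. Leiden 2 gave 161 CPM in immune-like nuclei of mesPVAT 10x and 377 CPM in adipocyte-like nuclei of cow WAT, and Leiden 0.5 gave 384 CPM in ASPC-like nuclei of cow WAT.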
